A study of Rattus norvegicus with 12 samples.

Results

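The 5 miRs described here are rno-miR-142-3p, rno-miR-142-5p, rno-miR-223-3p, rno-miR-146a-5p and rno-miR-146b-5p, out of 426 mature rat miRs in the count table. They were picked by name for their known roles in myeloid cells and inflammation after injury, and the ratio of both miR-142 arms was followed as well. The question was whether these miRs differed in serum extracellular vesicles (EVs) between rapamycin and vehicle, or between the days after tendon injury. Rapamycin inhibits mTOR, a kinase that controls cell growth. Female wild-type Wistar rats, 12 weeks old, all had a needle injury of 1 Achilles tendon, so no uninjured animal was available as a reference. They received daily intraperitoneal injections of rapamycin at 2 mg per kg or of vehicle, with 5 injections by day 7 and 19 by day 21. The 4 groups (vehicle day 7, rapamycin day 7, vehicle day 21, rapamycin day 21) each held 3 animals, 1 library per animal. The labels name the tissue as tendon, but by the methods the RNA came from EVs of clotted blood serum, taken by size exclusion. The paper cautions that this step alone may be insufficient to isolate EVs, which were not comprehensively characterised. Levels are given as CPM, the count scaled to the miR total of the library. In the 10 libraries listed in the study's supplement, the erythrocyte miRs of the table summed to 169223 to 261271 CPM. The skeletal muscle miRs summed to 0 to 1979 CPM there. In the other 2 libraries, both from day 7, the erythrocyte miRs summed to 53781 (vehicle) and 105987 CPM (rapamycin). The skeletal muscle miRs summed to 11009 and 933 CPM in them.

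In blood, miR-142 is made by nearly all cells of the haematopoietic lineage, and miR-223 mainly by neutrophils, monocytes and their precursors, with platelets also carrying it. The miR-146 genes are induced by NF-κB during inflammatory signalling, and their products repress the adaptors IRAK1 and TRAF6, which dampens that signalling. A miR represses messages that pair with its seed, bases 2 to 8 from the 5′ end, so miRs with 1 seed share most predicted targets. A lower share of a leukocyte miR in serum EVs can come from fewer vesicles of its cell type or less miR in each. It can also come from more of the other miRs in the library, and the share alone does not tell these apart.

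The mature sequences are shown because they set which members are independent products and which are near copies. They are the RefSeq rat sequences (build GRCr8), 5′ to 3′, with the seed in capitals.
miR-142-3p: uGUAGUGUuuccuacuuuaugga
miR-142-5p: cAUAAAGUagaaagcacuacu
miR-223-3p: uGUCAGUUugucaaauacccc
miR-146a-5p: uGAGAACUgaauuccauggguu
miR-146b-5p: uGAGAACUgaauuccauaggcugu
All 5 members, and 385 of the 426 miRs in the table, had a RefSeq sequence of the same name. The seeds of miR-142-3p, miR-142-5p and miR-223-3p occurred in no other of these miRs, whereas miR-146a-5p and miR-146b-5p carried the same seed. Aligned from the 5′ end, the miR-146 pair was identical at 20 of 22 bases. The substitutions, written with the miR-146a-5p base first and counted from the 5′ end, were G18A and U21C, and miR-146b-5p was 2 bases longer. With 1 mismatch allowed when reads were assigned to mature miRs, and both substitutions near the 3′ end, the counts of the pair are less certain than those of the other members. Both miR-142 arms come from 1 hairpin at chr10:73055104-73055190 on the plus strand, which overlaps the annotated span of the protein-coding gene Tspoap1. The hairpin of miR-223 lies at chrX:65151383-65151492 (plus) and overlaps a long non-coding RNA gene. The Mir146a hairpin is at chr10:28349996-28350090 (minus) and also overlaps a long non-coding RNA gene. Mir146b is at chr1:255144860-255144947 (plus) and overlaps C1h10orf95. The strands of the overlapping genes were not compared.

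A table of read totals in the study's supplement lists 10 of the 12 libraries. Vehicle day 7 replicate 1 and rapamycin day 7 replicate 2 are not in it, and no reason is given. A supplementary figure caption also refers to 10 samples as those included in the study's miR and tRNA analyses. The paper's list of day 7 calls, however, states 3 animals per treatment and timepoint. These unlisted libraries stood apart for the members, as described next, so results are given for the 10 listed libraries first and for all 12 beside them. The miR total was 16327 to 51391 counts per listed library and 95834 and 51431 in the unlisted vehicle and rapamycin library. A count of 3, taken as the smallest level that the depth can show, equalled 58.4 to 184 CPM in the listed libraries. No molecular identifiers were counted, so reads can be copies of 1 molecule, and intervals on single libraries cover counting error only.

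The members together took 1.41% to 2.70% of the miR counts in the listed libraries. In the unlisted vehicle library the share was 0.573% (exact Clopper-Pearson 95% interval 0.526% to 0.623%), and in the unlisted rapamycin library it was 0.815% (0.739% to 0.896%). The order of the members by mean level over the listed libraries was miR-223-3p (11951 ± 1779 CPM, SD, n = 10), miR-142-3p (5927 ± 1794), miR-142-5p (1520 ± 528), miR-146a-5p (1164 ± 532) and miR-146b-5p (472 ± 244). The neighbours miR-142-5p and miR-146a-5p were within 1 SD of each other, and their libraries overlapped. Every listed library had more miR-223-3p than miR-142-3p, and more miR-142-3p than any of the other 3 members. miR-223-3p ranked between 14 and 27 among all miRs of a listed library, while miR-146b-5p, with 5 to 27 counts, ranked between 69 and 122. These are levels of reads, and differences between miRs also hold how well each sequence is captured during library preparation.

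**Figure D1:**
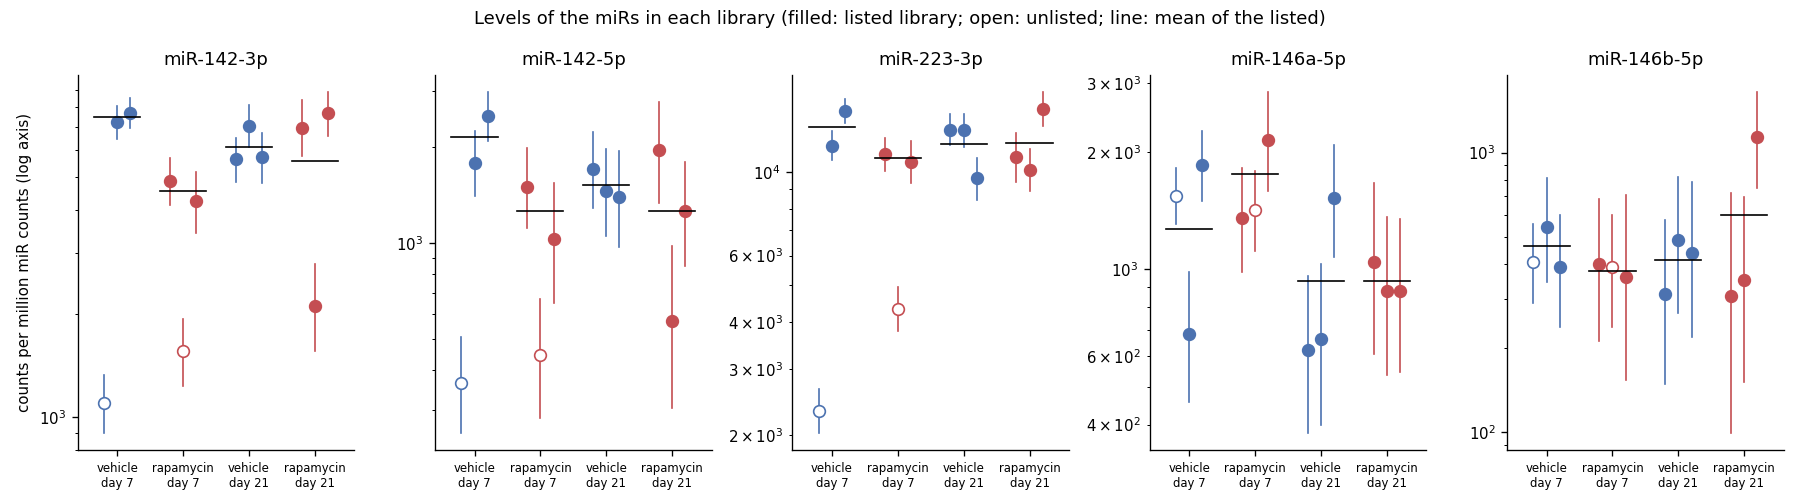
CPM of each member in every library on a log axis, by treatment and day, with exact 95% binomial intervals as bars. The black line is the mean of the listed libraries (filled points). The unlisted libraries (open points) lie below all listed ones for miR-142-3p, miR-142-5p and miR-223-3p and within them for miR-146a-5p and miR-146b-5p.

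In the unlisted libraries the miR-142 and miR-223 products were low and the miR-146 products were not. The CPM of miR-142-3p was 1096 in the unlisted vehicle library and 1555.5 in the unlisted rapamycin library, against 2111 to 7706 in the listed libraries. miR-142-5p stood at 365 and 447 CPM (listed 572 to 2510), and miR-223-3p at 2316.5 and 4336 CPM (listed 9628 to 14734). For these 3 members, both unlisted libraries therefore lay below every listed one. In contrast, miR-146a-5p, at 1544 and 1419 CPM, was within the listed range of 622.5 to 2147, and miR-146b-5p, at 407 and 389 CPM, was within 306 to 1133. Relative to the listed median, miR-142-3p was at 0.173 of it in the unlisted vehicle library, which was the place 4 from the lowest among the 75 miRs that reached 10 counts throughout the listed libraries, and at 0.245 in the unlisted rapamycin library, place 2. miR-223-3p held place 6 in each, and miR-142-5p places 11 and 3. The median miR of the 75 was at 0.871 and 0.875 of its listed level, and miR-146a-5p at 1.61 and 1.48, places 55 and 50. The erythrocyte miRs also lay lower there, with a summed 53781 and 105987 CPM, while the endothelium and platelet miRs, at 36981 and 42056 CPM, lay above the listed maximum of 33932. The lymphocyte miRs, at 26097 and 30215 CPM, were within the listed range of 16749 to 34014. Whether these shifts in makeup bear on the members' levels was not tested.

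**Figure D2:**
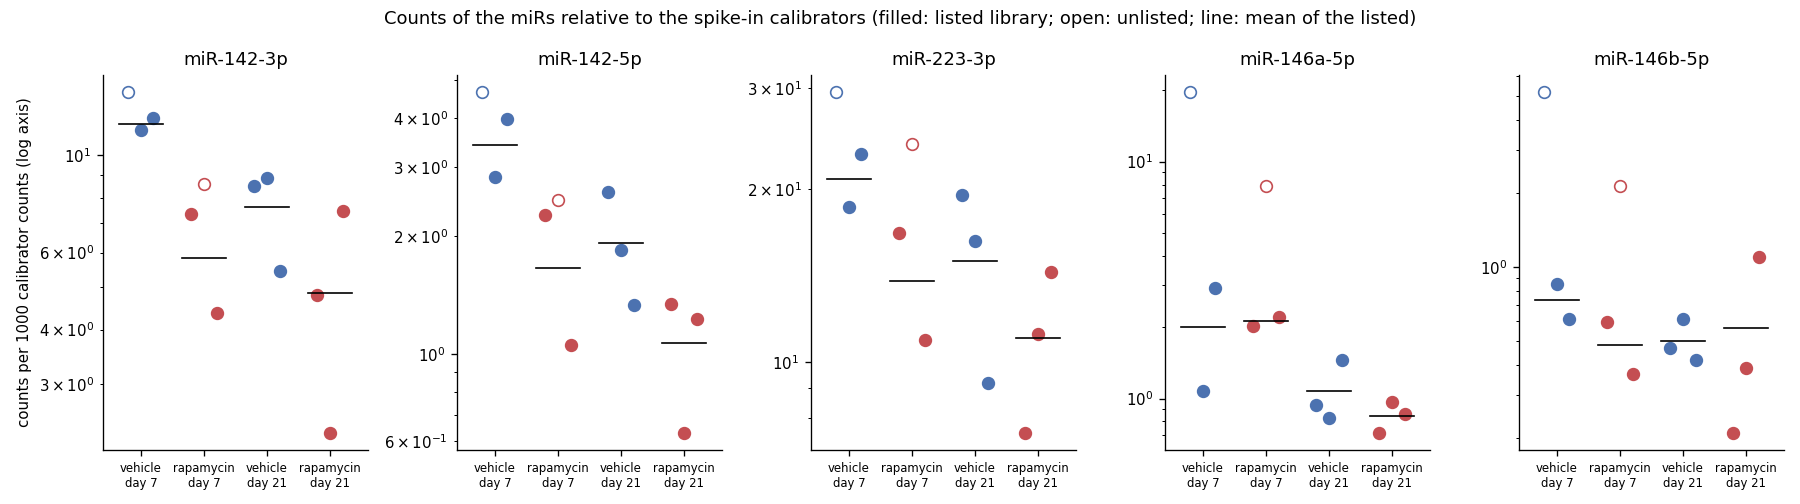
Counts of each member per 1000 counts of the 7 spike-in calibrators in every library, on a log axis, with listed libraries filled, unlisted ones open and a black line for the mean of the listed. The unlisted libraries, low in CPM for miR-142 and miR-223, lie within or above the listed range on this scale.

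Seen against the spike-in calibrators, synthetic RNAs of which each sample received the same volume, the same libraries looked different. The miR total was 12.8 and 5.53 times the calibrator counts in the unlisted vehicle and rapamycin library, against 0.686 to 1.58 times in the listed ones. Per 1000 calibrator counts, miR-142-3p stood at 14.0 and 8.61 (listed 2.32 to 12.2) and miR-223-3p at 29.5 and 24.0 (listed 7.52 to 23.0). miR-146a-5p stood at 19.7 and 7.86, where the listed libraries held 0.714 to 2.92. On this scale no member was below the listed range in an unlisted library. In units of the listed median, miR-142-3p was at 1.89 and 1.16, miR-142-5p at 2.93 and 1.56, miR-223-3p at 1.93 and 1.57, miR-146a-5p at 19.2 and 7.67 and miR-146b-5p at 9.71 and 4.03. The median of the 75 miRs was at 9.31 and 4.06. In these libraries miR-142 and miR-223 products stood less far above their listed median than the median miR did, and miR-146a-5p stood farther above it.

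The treatment comparison at day 7 asked whether rapamycin moved the members early after injury. In the listed libraries, miR-142-3p stood at 7236.5 and 7706 CPM with vehicle and at 4886 and 4250 CPM with rapamycin. miR-142-5p stood at 1791 and 2510 CPM with vehicle and at 1506 and 1029 CPM with rapamycin. Both products of the miR-142 hairpin were thus lower in each listed rapamycin library than in each listed vehicle library. miR-223-3p, at 11762 and 14555 CPM with vehicle and 11155 and 10646 CPM with rapamycin, was ordered the same way by a narrower gap. miR-146a-5p overlapped, with 684 and 1849 CPM with vehicle and 1352 and 2147 CPM with rapamycin. miR-146b-5p stood at 542 and 389 CPM against 399.5 and 358 CPM, and overlapped too. Such separation was common: with 2 libraries a group, 60% of the 75 miRs did not overlap at day 7, and 24% were lower in both rapamycin libraries. Over all 12 libraries no member separated by treatment at day 7, where 5.41% of 74 miRs did.

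Tested with edgeR over every miR, 0 of the 5 members were called at day 7 (adjusted p under 0.05), and 0 had an unadjusted p under 0.05, with edgeR or with DESeq2. Of all 365 miRs, 0.548% were called and 3.84% had an unadjusted p under 0.05. The log2 fold change of miR-142-3p was -0.85 (SE 0.45, 95% interval -1.73 to 0.04, unadjusted p = 0.0600, adjusted p = 0.979), which in fold terms was 0.556 of vehicle. It was -0.90 (SE 0.61, interval -2.10 to 0.30) for miR-142-5p and -0.41 (SE 0.40, interval -1.19 to 0.36) for miR-223-3p. It was 0.31 (SE 0.65, interval -0.98 to 1.59) for miR-146a-5p and -0.42 (SE 0.91, interval -2.20 to 1.36) for miR-146b-5p, and the adjusted p was 0.979 for each. The interval of miR-146b-5p, the member with the fewest counts, was the widest, and every interval held 0. Over all 12 libraries the log2 fold change of miR-142-3p was -0.78 (SE 0.51, adjusted p = 1), and 0% of 426 miRs were called. For miR-142-3p, the setting with the smallest adjusted p fitted only the day 7 libraries (log2 fold change -0.85, SE 0.31, adjusted p = 0.161, unadjusted p = 0.00611), and over the alternatives that gave it an adjusted p, those leaving out a library included, the range was 0.161 to 1. Independent filtering, which adjusts over the more abundant miRs alone, left 30 miRs at day 7. It gave an adjusted p to miR-223-3p (0.594, edgeR) but not to the 4 other members, which could not be called there. The study, with a filter of this type, reported miR-142-3p as differentially expressed and lower with rapamycin at day 7. Its false discovery rate there was just under 0.05. Independent filtering was not combined here with the fit of the day 7 libraries alone, so the alternatives do not test the study's call. The value of miR-146a-5p turned on single vehicle libraries, from -0.19 without vehicle day 7 replicate 2 to 1.25 without vehicle day 7 replicate 3.

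On the calibrator scale, which was looked at after the CPM values had been seen, the miR-142 arms separated by treatment at day 7 in all 12 libraries. Per 1000 calibrator counts, miR-142-3p stood at 14.0, 11.4 and 12.2 with vehicle and at 7.34, 8.61 and 4.35 with rapamycin, in the order of the replicates. miR-142-5p stood at 4.66, 2.83 and 3.97 with vehicle and at 2.26, 2.48 and 1.05 with rapamycin. Both arms were thus lower in each of the 3 rapamycin libraries than in each of the 3 vehicle libraries, which was the case for 3 of 74 miRs (4.05%), and for 29.3% of 75 miRs in the listed libraries. In the listed libraries miR-223-3p and miR-146b-5p were lower with rapamycin as well, but with the unlisted libraries both overlapped, and miR-146a-5p overlapped in either set. For miR-146b-5p the listed gap was slight, with 0.600 (13 counts) in rapamycin replicate 1 and 0.616 (20 counts) in vehicle replicate 3. It was also too low in counts to be among the 75 miRs. Fitted to all 12 with the calibrator counts as library size, the log2 fold change was -0.89 (SE 1.13, edgeR adjusted p = 0.828) for miR-142-3p and -0.98 (SE 1.29, adjusted p = 0.828) for miR-142-5p, where the median of all miRs was at -1.12 and 0% were called.

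Beside these values at day 7, the summed level of the 4 lymphocyte miRs was 32293 and 34014 CPM in the listed vehicle libraries and 20085 and 24952 CPM in the listed rapamycin libraries, with 1 of the 4 called lower. The liver miRs were at 3542 and 3677 CPM in the listed vehicle libraries and 10018 and 10646 CPM in the listed rapamycin libraries. With the unlisted libraries the treatments overlapped for both lists. The unlisted vehicle and rapamycin libraries held 26097 and 30215 CPM of lymphocyte miRs and 13273 and 10830 CPM of liver miRs. Over all 12 libraries 0 of the 4 lymphocyte miRs were called at day 7. The part of this makeup in the members' values was not tested.

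**Figure D3:**
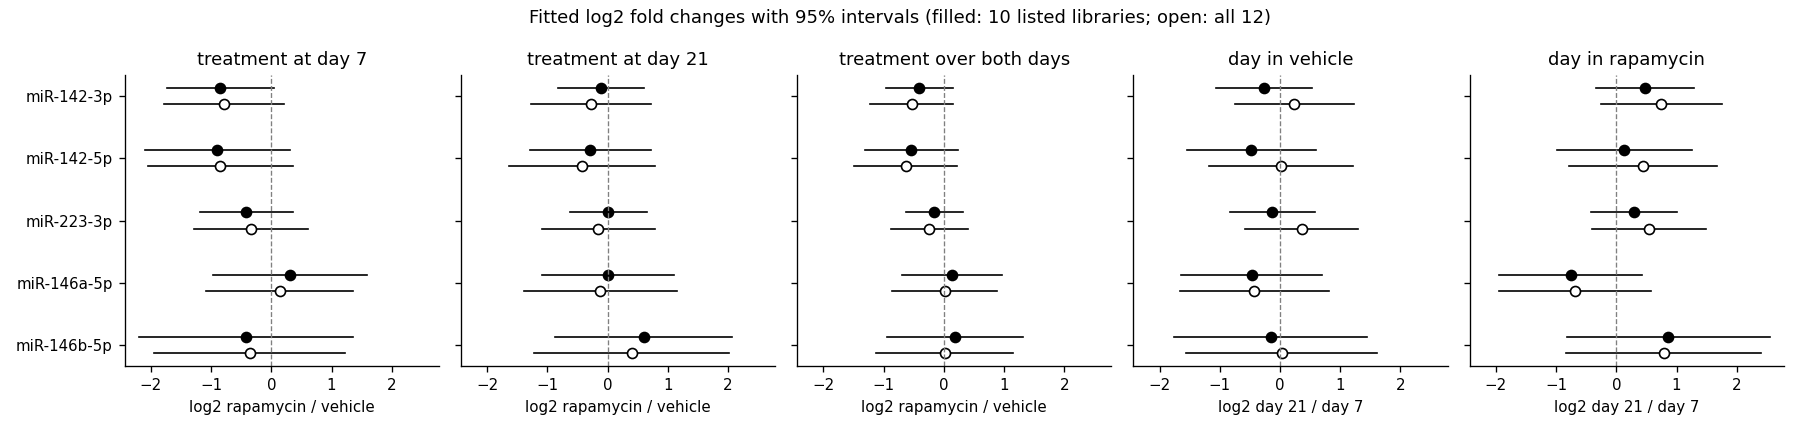
Fitted log2 fold change of each member with its 95% interval, rapamycin over vehicle in the first 3 panels and day 21 over day 7 in the other 2, for the 10 listed libraries (filled) and all 12 (open). Every interval crosses 0.

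At day 21 no member separated by treatment, where 14.7% of the 75 miRs did. miR-142-3p stood at 5634, 7074 and 5713 CPM with vehicle and at 6982, 2111 and 7682 CPM with rapamycin. A single library, rapamycin day 21 replicate 2, held the low value, from 48 counts, and there miR-142-5p was also the lowest of the listed libraries (572 CPM, 13 counts). In the same library miR-223-3p stood at 10160 CPM, between the lowest listed vehicle library and the other rapamycin libraries. The ratio of miR-142-3p to miR-223-3p was 0.208 there and 0.399 to 0.637 in the other 9 listed libraries. Rapamycin day 21 replicate 3 was high in miR-223-3p (14734 CPM, against 10963 and 10160 in the other rapamycin libraries and 12980, 12928 and 9628 with vehicle). It was also high in miR-146b-5p, at 1133 CPM from 27 counts, against 306 and 352 CPM in its group and 311 to 488 CPM with vehicle. miR-146a-5p was even, at 1041, 880 and 881.5 CPM with rapamycin and 622.5, 662 and 1518 CPM with vehicle.

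The edgeR test at day 21 called 0 of 5 members, 0 had an unadjusted p under 0.05 with edgeR or with DESeq2, and 0% of 365 miRs were called in all, with 4.11% at an unadjusted p under 0.05. The log2 fold change was -0.11 (SE 0.37, interval -0.83 to 0.61) for miR-142-3p, -0.28 (SE 0.51, interval -1.28 to 0.71) for miR-142-5p and 0.01 (SE 0.32, interval -0.62 to 0.65) for miR-223-3p. It was 0.01 (SE 0.56, interval -1.08 to 1.11) for miR-146a-5p and 0.60 (SE 0.75, interval -0.87 to 2.07) for miR-146b-5p, with an adjusted p of 1 for each. Without rapamycin day 21 replicate 2, the value of miR-142-3p was 0.23 and that of miR-142-5p was 0.04. Leaving out rapamycin day 21 replicate 3 moved miR-146b-5p to -0.50. The direction at day 21 was therefore set by 1 library for each of these 3 members.

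With the day as a blocking factor, the general effect of rapamycin was also below the threshold for each member. The vehicle libraries had a median of 7074 CPM of miR-142-3p (lowest 5634, highest 7706, n = 5) and the rapamycin libraries a median of 4886 CPM (lowest 2111, highest 7682, n = 5), so the groups overlapped, as they did for every member, where 4% of the 75 miRs separated. The edgeR test called 0 of 5 members (0 at an unadjusted p under 0.05 with edgeR or with DESeq2), where 0.548% of all miRs were called and 5.75% had an unadjusted p under 0.05. The log2 fold change was -0.41 (SE 0.28, adjusted p = 0.83) for miR-142-3p, -0.54 (SE 0.39) for miR-142-5p and -0.16 (SE 0.24) for miR-223-3p. It was 0.14 (SE 0.42) for miR-146a-5p and 0.18 (SE 0.58) for miR-146b-5p, with an adjusted p of 0.939 for both. The interaction, which is the difference between the treatment effects at day 7 and at day 21, was -0.74 (SE 0.58, adjusted p = 1.00) for miR-142-3p and ran from -1.02 in miR-146b-5p to 0.29 in miR-146a-5p. It called 0 of 5 members, with 0 at an unadjusted p under 0.05 by edgeR or by DESeq2, where 0.274% of all miRs were called and 3.56% had an unadjusted p under 0.05. Over all 12 libraries, 0 members and 0% of the miRs were called at day 21, over both days and in the interaction. The treatment effects on the 2 days were thus not shown to differ.

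The days after injury were compared within each treatment. In the listed vehicle libraries, all 3 day 21 values of miR-142-3p (5634 to 7074 CPM) were below both day 7 values, and so were those of miR-142-5p (1398 to 1712 CPM). Of the 75 miRs, 17.3% did not overlap between the days in vehicle and 10.7% were lower at day 21. With the unlisted vehicle library included, both arms overlapped, where 9.46% of 74 miRs did not. The log2 fold change of day 21 over day 7 in vehicle was -0.27 (SE 0.40) for miR-142-3p, -0.48 (SE 0.55) for miR-142-5p, -0.13 (SE 0.36) for miR-223-3p, -0.47 (SE 0.60) for miR-146a-5p and -0.16 (SE 0.82) for miR-146b-5p, each with an adjusted p of 1. The edgeR test called 0 of 5 members, and 0 had an unadjusted p under 0.05 with edgeR or with DESeq2, where 0.274% of 365 miRs were called and 1.64% had an unadjusted p under 0.05. Over all 12 libraries, where 0.469% of 426 miRs were called and 0 members, the sign of miR-142-3p turned, to 0.24 (SE 0.51), and that of miR-223-3p to 0.36 (SE 0.48), while the median of all miRs was at -0.43.

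With rapamycin, miR-146a-5p was the member that separated the days. It stood at 1352 and 2147 CPM in the listed day 7 libraries and at 1041, 880 and 881.5 CPM at day 21, and the unlisted day 7 library, at 1419 CPM, was on the same side. Of the miRs counted in the same way, 20% did not overlap and 10.7% were lower at day 21 in the listed libraries, and 17.6% and 9.46% in all 12, so that 1 of the 4 members deep enough to be counted was near this background in each. The fitted log2 fold change of miR-146a-5p was -0.76 (SE 0.61, interval -1.95 to 0.43, unadjusted p = 0.21, adjusted p = 1), and in all 12 libraries it was -0.69 (SE 0.64, adjusted p = 0.852). Per 1000 calibrator counts it stood at 2.03 and 2.20 on day 7 and 0.714 to 0.967 on day 21 in the listed libraries. For the other members the value was 0.47 (SE 0.42) in miR-142-3p, 0.13 (SE 0.57) in miR-142-5p, 0.29 (SE 0.36) in miR-223-3p and 0.86 (SE 0.86) in miR-146b-5p. The edgeR test called 0 of 5 members, with 0 at an unadjusted p under 0.05 by edgeR or by DESeq2, where 0.548% of 365 miRs were called and 5.21% had an unadjusted p under 0.05. Over all 12 libraries 0 members and 1.17% of the miRs were called. With the calibrator counts as library size, miR-142-3p was at -0.26 and miR-223-3p at -0.33, where the median of all miRs was at -0.30, so the direction of these members depended on the scaling.

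The arm ratio of miR-142 needs no normalization, since both arms are counted in the same library. In a hairpin, Dicer frees a duplex of both arms, and the arm loaded into Argonaute is the one that is mostly kept. The miR-142 hairpin (87 bases, RefSeq GRCr8) is shown with both mature arms in capitals, the 5p arm first, to show where each counted product lies.
Mir142: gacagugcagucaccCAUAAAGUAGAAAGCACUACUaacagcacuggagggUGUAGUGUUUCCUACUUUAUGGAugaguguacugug
The ratio of 3p to 5p counts was 4.04 and 3.07 in the listed vehicle libraries at day 7 and 3.25 and 4.13 in the listed rapamycin libraries. At day 21 it was 3.29, 4.83 and 4.09 with vehicle and 3.56, 3.69 and 6.10 with rapamycin. The unlisted libraries, where the level of both arms was low, had ratios of 3.00 (vehicle) and 3.48 (rapamycin). The 3p arm thus had more counts in each of the 12 libraries, and the groups overlapped.

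**Figure D4:**
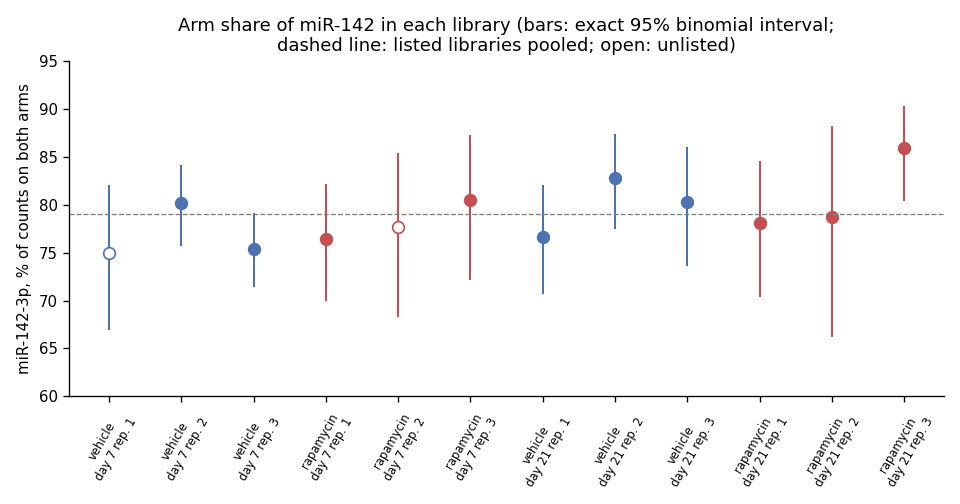
Share of miR-142-3p among the counts of both miR-142 arms in each library (percent, axis from 60% to 95%), with exact 95% binomial intervals. The dashed line is the pooled share of the listed libraries, 79.1%, and rapamycin day 21 replicate 3, at 85.9%, is the highest.

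Pooled over the listed libraries, 1829 of the counts fell on the 3p arm and 484 on the 5p arm, a 3p share of 79.1% (exact Clopper-Pearson 95% interval 77.4% to 80.7%). This pooled interval treats reads as independent draws and leaves out variation between animals. The interval of 8 of the 10 listed libraries held the pooled share. The highest library was rapamycin day 21 replicate 3, with 85.9% (80.5% to 90.3%), and the other whose interval missed it was vehicle day 7 replicate 3, with 75.4% (71.5% to 79.05%). The difference in mean log2 ratio, rapamycin minus vehicle, was 0.06 at day 7 (exact permutation test, two-sided, p = 0.667) and 0.10 at day 21 (exact p = 0.8). It was 0.08 with treatments permuted within days (exact p = 0.683). Day 21 minus day 7 gave 0.19 in vehicle (exact permutation p = 0.4) and 0.24 in rapamycin (exact permutation p = 0.7), and the interaction was -0.05 (exact permutation p = 0.9). Adjusted over these 6 comparisons, p was 0.9 for each. With so few arrangements the exact permutation p cannot go below 0.333 at day 7, and at day 21 and between days it cannot go below 0.1. Over all 12 libraries the exact permutation p ran from 0.2 to 0.99. Without rapamycin day 21 replicate 3, the difference at day 21 was -0.15 and that between days in rapamycin was -0.01.

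The hairpins of miR-223 and miR-146a were counted almost wholly from 1 arm. miR-223-3p held 98.9% of the counts on both miR-223 arms (exact Clopper-Pearson 95% interval 98.6% to 99.2%), and miR-223-5p had 0 to 10 counts per listed library. That interval, from pooled reads, also leaves out variation between animals. miR-146a-3p had 1 count, in rapamycin day 7 replicate 3, and 0 in the other 11 libraries. The ratio of miR-146a-5p to miR-146b-5p counts ran from 0.778 in rapamycin day 21 replicate 3 to 6.0 in rapamycin day 7 replicate 3, and was 3.79 and 3.65 in the unlisted libraries. It was thus far less even than the ratio of the miR-142 arms, at 5 to 27 counts of miR-146b-5p per listed library.

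Across the 10 listed libraries, the members varied together to different degrees, without a clean division between them. The arms of miR-142 gave Pearson r = 0.89 and Spearman rho = 0.70 on log2 CPM after TMM scaling, but r = 0.43 without the 2 libraries farthest from the median of miR-142-3p. Without the 2 farthest from the median of miR-142-5p their r was 0.66, and in all 12 libraries it was 0.96. For miR-142-3p and miR-223-3p the values were r = 0.73, rho = 0.85 and r = 0.76 without the 2 farthest from the median of miR-142-3p. miR-142-5p and miR-223-3p gave r = 0.59 and rho = 0.70, and r = 0.36 without the 2 farthest from the median of miR-142-5p. miR-146a-5p and miR-146b-5p, with the same seed, gave r = -0.17 and rho = -0.21. The values of r for miR-146a-5p with the other members ran from -0.20 to 0.05. miR-146b-5p gave r = 0.52 and rho = 0.67 with miR-142-3p, r = 0.64 and rho = 0.47 with miR-223-3p, and r = 0.14 with miR-142-5p. The libraries share treatment, day and depth differences, so these values are descriptions without a test. Within the set of 75 miRs named above, the most alike to miR-142-3p were miR-21-5p (r = 0.92), miR-142-5p (0.89) and the lymphocyte miR-150-5p (0.87). For miR-142-5p they were miR-150-5p (0.92), miR-142-3p (0.89) and miR-26a-5p (0.87, but 0.25 in all 12 libraries). miR-223-3p was most alike to miR-92a-3p (0.82), let-7i-5p (0.78) and miR-144-5p (0.78), of which miR-92a-3p was among the erythrocyte miRs here. For miR-146a-5p the highest values were with miR-101b-3p (0.58), miR-378a-3p (0.48) and miR-29a-3p (0.44). For miR-146b-5p they were with miR-93-5p (0.81), let-7c-5p (0.67) and miR-92a-3p (0.67), and the first fell to -0.53 without the 2 libraries farthest from the median.

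A wider list of miRs with known roles in inflammation or myeloid cells held 22 names, of which 20 were in the table and 19 had a count in the listed libraries. The edgeR test called 0 of the 19 in each of the 6 comparisons. At an unadjusted edgeR p under 0.05 there were 0 at day 7, at either day contrast and in the interaction, and 1 at day 21 and over both days, which was miR-34a-5p each time. The median log2 fold change of the list was 0.24 at day 7 and -0.08 at day 21, beside medians of 0 over all 365 miRs, and the members' own medians were -0.42 and 0.01. At day 7, 4 of the 5 members and 9 of the 19 other miRs had a value below 0. The 5 most abundant of the list at day 7 were miR-21-5p (-0.42, SE 0.30), a miR induced in activated macrophages and fibroblasts, let-7i-5p (-0.23, SE 0.34), miR-181a-5p (-0.13, SE 0.38), miR-24-3p (0.71, SE 0.44) and miR-27a-3p (0.24, SE 0.46). miR-155-5p, which macrophages make on activation, had 1 to 16 counts per library, and its value at day 7 was -0.99 (SE 1.21).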

How the data were processed

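Serum EV small RNA from 12 rats was sequenced as single-end reads with spike-in standards. The authors deposited raw counts per mature miR, and per the labels and methods the reads had been trimmed (cutadapt 3.3), mapped with Bowtie 1.3.0 to the rat genome mRatBN7.2 (up to 2 mismatches, minimum length 17) and assigned to miRBase with 1 mismatch. The strand setting is not given in the sources used here. The 10 spike-ins (7 calibrators and 3 quality controls) were left out of miR totals. Groups follow the sample titles, and the animals were separate.

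CPM is a count relative to the miR total. Differences were tested with edgeR 4.0.16 (R 4.3.3) on the counts with TMM, quasi-likelihood and two-sided, with all 4 groups in 1 fit sharing the dispersion, and with Benjamini-Hochberg adjustment over every miR with at least 1 count. A mean per treatment and day was fitted, or treatment with the day as a block. The arm ratio was compared by exact permutation. The fits were tested on simulated data. The alternatives were all 12 libraries, DESeq2 size factors, DESeq2 1.42.0, filterByExpr, independent filtering, calibrator counts or sequenced reads as library size, only the groups compared, a replicate block, each library left out, and, chosen after seeing the data, all 12 libraries with a replicate block or with calibrator counts as library size.

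The members and lists were chosen with earlier results of these data known. The text names the 5 members, the other arms of their hairpins, the 3 miRs most alike to each member by Pearson r, and the 5 most abundant miRs of the inflammation and myeloid list. miR-34a-5p and miR-155-5p were named after their values were seen. Replicate numbers come from the titles and mark different animals. Deviations of same-numbered listed libraries from their group means correlated from -0.61 to 0.50 over 75 miRs, so the numbers were not taken to pair libraries.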

Additional observations from a re-analysis of the deposited data

Results flagged for a closer look

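Of the 12 sets of 5 listed libraries checked (the CPM of each member and the arm ratio of miR-142, within each treatment), 2 had a library whose gap to its neighbour was unusually wide for the range of its set, and chance alone gives this in about 1 of 20 such sets. Both concern rapamycin day 21 replicate 3. Its miR-223-3p level was 14734.3 CPM, where the other 4 listed rapamycin libraries stood between 10160 and 11155 CPM. Its miR-146b-5p level was 1133.4 CPM, where the others stood between 306 and 399.5 CPM. In the listed vehicle libraries miR-223-3p reached 14555 CPM and miR-146b-5p reached 542 CPM.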

How the results depend on the processing

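No member that had an adjusted p was called in any of the 6 comparisons under the alternatives run. Independent filtering, the type of filter the study used, sets the abundance cutoff that gives the most calls. At day 7 it left 30 miRs and removed miR-142-3p, miR-142-5p, miR-146a-5p and miR-146b-5p, so that these 4 members could not be called there, and at day 21 it removed miR-146b-5p. In all, 547 of the 620 alternative fold changes of members kept their direction while 73 took the other. The smallest adjusted p of a member was 0.122, in miR-146a-5p for the days in vehicle with all 12 libraries and calibrator counts as library size (log2 fold change -2.86, SE 1.30), where the median of all miRs was -2.66. At an unadjusted p under 0.05, at most 2 of 5 members passed under any alternative. These were miR-142-3p and miR-142-5p for treatment over both days, with calibrator counts or with sequenced reads as library size. Of all 365 miRs, 26 passed the same threshold there with calibrator counts and 28 with sequenced reads. With calibrator counts the log2 fold changes of these arms were -0.79 and -0.92, where the median of all miRs was -0.27. With 2 or 3 libraries a group and 5 to 748 counts per member and listed library, differences smaller than the intervals above are not detectable. Leaving out 1 library at day 7 leaves 1 library in a group, which is then assumed to vary like the other groups.

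The number of miRs called in the whole table was 2 at day 7 and became 0 with all 12 libraries, DESeq2, filterByExpr, calibrator counts or sequenced reads as library size, and all 12 with a replicate block or calibrators, 1 with DESeq2 size factors or a replicate block, and 8 with only the groups compared. At day 21 it was 0 and became 1 with independent filtering. Over both days it was 2 and became 0 with all 12, DESeq2, filterByExpr, a replicate block and all 12 with a replicate block or calibrators, and 5 with independent filtering. For the days in vehicle it was 1 and became 2 with all 12 and with only the groups compared, and 0 with DESeq2, filterByExpr and all 12 with a replicate block, and 41 with all 12 and calibrators. For the days in rapamycin it was 2 and became 5 with all 12, 0 with DESeq2 and filterByExpr, 4 with independent filtering and 1 with sequenced reads and with all 12 and calibrators. For the interaction it was 1 and became 0 with all 12, DESeq2 size factors, DESeq2, filterByExpr, calibrators, sequenced reads and all 12 with a replicate block or calibrators. With each library left out in turn, these counts ran from 0 to 6, 0 to 4, 0 to 6, 0 to 2, 1 to 16 and 0 to 7 in the same order. Causes were not tested.

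Log2 fold changes of members that turned were, at day 7, miR-146a-5p with sequenced reads (-0.056). At day 21 they were miR-223-3p with all 12 (-0.15), a replicate block (-0.017), calibrators (-0.45), sequenced reads (-0.43), only the groups compared (-0.038) and all 12 with a replicate block (-0.22), and miR-146a-5p with all 12 (-0.12), calibrators (-0.35), sequenced reads (-0.34), only the groups compared (-0.011) and all 12 with a replicate block (-0.014). Over both days they were miR-146a-5p with calibrators (-0.17) and sequenced reads (-0.22), and miR-146b-5p with calibrators (-0.13), sequenced reads (-0.14) and all 12 with a replicate block (-0.031). For the days in vehicle they were miR-142-3p (0.24), miR-142-5p (0.015), miR-223-3p (0.36) and miR-146b-5p (0.029) with all 12, and miR-142-3p (0.29), miR-223-3p (0.48) and miR-146b-5p (0.031) with all 12 and a replicate block. For the days in rapamycin they were miR-142-3p with calibrators (-0.26) and sequenced reads (-0.14), miR-142-5p (-0.63 and -0.50) and miR-223-3p (-0.33 and -0.20). With all 12 and calibrators, those that turned were miR-146a-5p at day 7 (-0.97), miR-223-3p (-0.45) and miR-146a-5p (-0.34) at day 21, miR-146a-5p (-0.66) and miR-146b-5p (-0.46) over both days, miR-142-3p (-0.47), miR-142-5p (-0.85), miR-223-3p (-0.64) and miR-146b-5p (-0.85) for the days in rapamycin, and miR-146a-5p (-0.63) for the interaction. With each library left out, the fold changes that turned in some fit ran, at day 7, from -0.19 to 1.25 in miR-146a-5p, and at day 21 from -0.53 to 0.23 in miR-142-3p, -0.69 to 0.042 in miR-142-5p, -0.34 to 0.093 in miR-223-3p, -0.26 to 0.37 in miR-146a-5p and -0.50 to 0.92 in miR-146b-5p. Over both days they ran from -0.098 to 0.36 in miR-146a-5p and -0.50 to 0.32 in miR-146b-5p. For the days in vehicle they ran from -0.27 to 0.068 in miR-223-3p, -1.01 to 0.42 in miR-146a-5p and -0.37 to 0.10 in miR-146b-5p. For the days in rapamycin they ran from -0.27 to 0.41 in miR-142-5p and -0.14 to 1.18 in miR-146b-5p, and for the interaction from -0.14 to 1.30 in miR-146a-5p. Calibrators moved the median of all miRs to -0.27 over both days, -0.35 for the days in vehicle and -0.30 for the days in rapamycin, and with all 12 to -0.76, -2.66 and -1.80.

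The arm ratio interaction was 0.0071 with all 12 and 0.15 with a replicate block. With each library left out, the arm ratio differences ran from -0.14 to 0.25 at day 7, -0.15 to 0.24 at day 21, -0.056 to 0.16 over both days, -0.0068 to 0.39 for the days in vehicle, -0.014 to 0.41 for the days in rapamycin and -0.24 to 0.20 for the interaction. Same-numbered libraries share only a number, and the replicate block changed no member's call, with 0 of 5 called in each comparison.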
